A study of Rattus norvegicus with 4 samples.

Results

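The genes described here are 40 genes of the G2 phase and mitosis, taken as a list of names (Mki67, Cdk1, the mitotic cyclins, the mitotic kinases, checkpoint, kinetochore, spindle and cytokinesis genes) and looked up by gene symbol in a table of 17899 rat genes. All 40 had a row, and all 40 were above 0 TPM in every library. TPM is a length-normalised share of a library's transcripts. Messenger RNA was measured in bulk synovium, the tissue that lines the joint, of rats with osteoarthritis. The libraries were 1 after human AdMSCs (AdMSC 1), 1 after human SyMSCs (SyMSC 1) and 2 after PBS, a salt buffer (PBS 1 and PBS 2). The abbreviations are those of the labels, where MSC commonly stands for mesenchymal stem cell; tissue was taken the day after the cells were given. The titles put PBS 1 with AdMSC 1 by the word Ad and PBS 2 with SyMSC 1 by the word Sy, without saying what the word marks. They also call both PBS libraries "mix", which is not explained, and the series title speaks of synovium before and after injection, so the treatment label alone makes them PBS-injected controls, and every difference from PBS rests on that label. Strain, sex, age and the number of animals per library were not given in the sources used here, so a p-value reflects only how far these 4 libraries spread, which may be technical. The injected group joins 2 cell sources with 1 library each, so its spread and SD also hold any difference between the sources. Prg4, the lubricin gene of the synovial lining, lay between 2448 and 4192 TPM in the 4 libraries.

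A cell enters mitosis when the kinase CDK1, bound to cyclins A and B, is switched on, with the kinases PLK1 and Aurora A helping. Condensed chromosomes attach to spindle microtubules through kinetochores, and the spindle checkpoint holds the cell until every kinetochore is attached. The anaphase-promoting complex, helped by CDC20 and UBE2C, then marks securin and cyclin B for destruction, and the central spindle and the contractile ring divide the cell. The genes for these proteins are silent or low in resting cells and are transcribed together late in the cycle, under the MuvB complex, B-MYB and FOXM1. In bulk tissue, fewer cells of a type and less RNA per cell cannot be told apart.

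Mitosis genes were higher in synovium that had received human cells than in synovium that had received PBS. Of the 40 genes 39 rose and 0 fell (limma across all tested genes, adjusted p under 0.05), where 23.7% of all 13371 tested genes rose and 24.7% fell (48.4% in either direction). All 40 passed the filter on low values. In 40 of 40 genes both injected libraries lay above both PBS libraries, against 39.5% of all tested genes. The log2 change, on the log2(TPM + 1) scale that understates the change of low genes, ran from 0.89 to 2.08 with a median of 1.44, beside a median of 0.00087 over all tested genes. Summed over the 40 genes, the level was 1104 TPM in AdMSC 1 and 925 TPM in SyMSC 1, against 391.7 TPM in PBS 1 and 270.3 TPM in PBS 2. The 1 gene that did not pass was Nusap1, whose PBS libraries lay far apart. Whether reads of the human cells were kept out of the rat values is not stated by the labels, and their part in the levels was not tested.

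**Figure D1:**
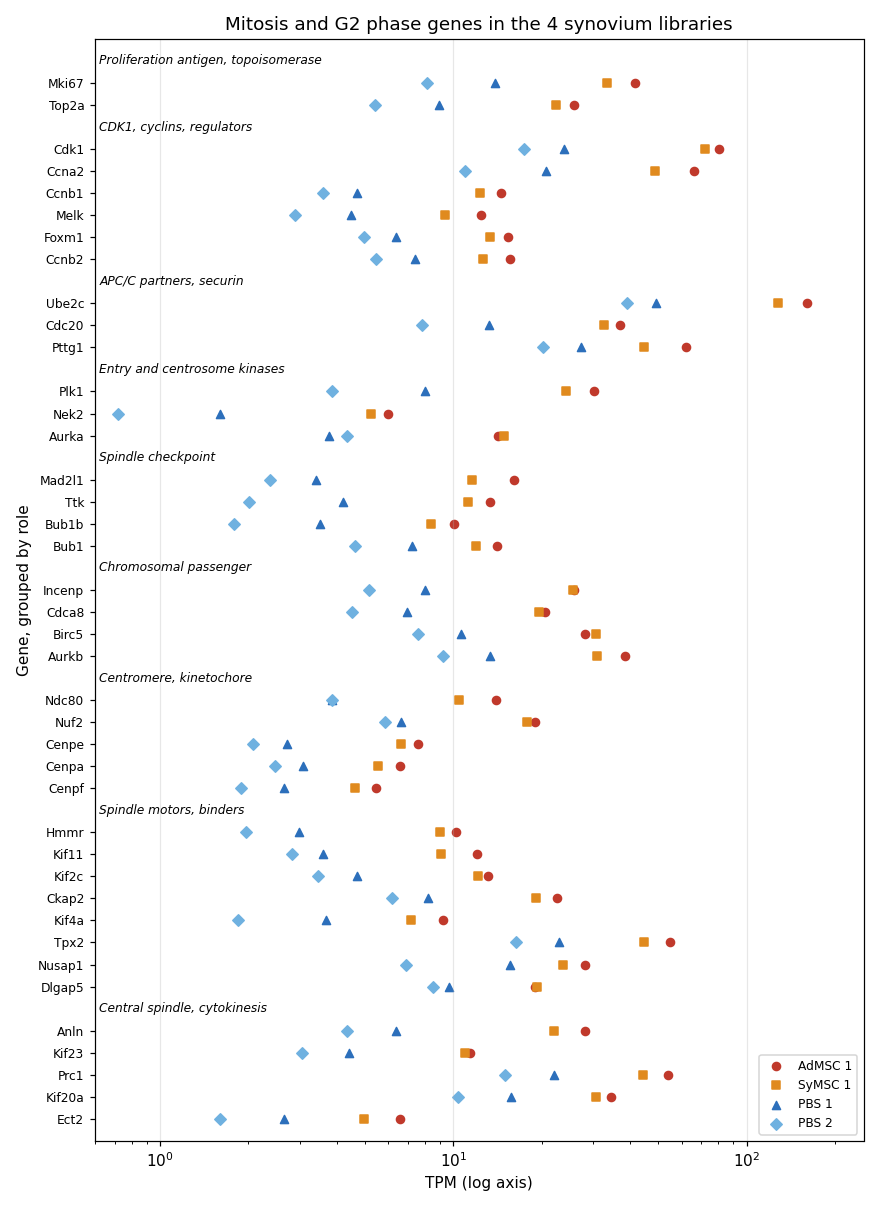
TPM on a log axis for each of the 40 genes, grouped by role, with 1 marker per library (circle AdMSC 1, square SyMSC 1, triangle PBS 1, diamond PBS 2). In every row both injected markers lie to the right of both PBS markers; Ube2c is the highest gene in all 4 libraries and Nek2 the lowest in both PBS libraries.

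Promoters of such genes are known for a motif pair, the cell cycle genes homology region (CHR, most often TTTGAA), to which MuvB binds, and CCAAT boxes, to which NF-Y binds. Of the 40 genes 34 had a window of 300 bases in the RefSeq promoter table (assembly GRCr8; 250 bases before to 50 after the annotated start, first-listed window per gene). Aurkb, Ccna2, Foxm1, Incenp, Tpx2 and Ube2c had none. Both strands were searched. TTTGAA occurred in 24 of the 34 windows (70.6%) and in 11.9% of the windows of 10546 tested genes. CCAAT occurred in 25 of 34 (73.5%) and in 37.9% of all, and 2 or more copies in 18 of 34 (52.9%) and in 13.6% of all. Both motifs stood in 19 of 34 windows (55.9%), against 4.84% of all tested genes and 6.16% of 2515 other genes that rose after injection. Of the rarer CHR spellings, TTCGAA was found in 2 windows (5.88%, against 2.11% of all) and TTTAAA in 13 (38.2%, against 8.94%). Among 25 replication and S phase genes with a window, TTTGAA was found in 2 (8%) and CCAAT in 17 (68%). These are letter matches and not measured binding. The sequences are the 150 bases before the start, read 5′ to 3′ on the gene's strand, for 6 genes of different roles that hold both motifs, for Ccnb2 with its 3 CCAAT boxes, and for Nek2, which has CCAAT but no TTTGAA; capitals mark TTTGAA and CCAAT or their reverse complements.
Mki67, chr1:199952594-199952743, minus strand: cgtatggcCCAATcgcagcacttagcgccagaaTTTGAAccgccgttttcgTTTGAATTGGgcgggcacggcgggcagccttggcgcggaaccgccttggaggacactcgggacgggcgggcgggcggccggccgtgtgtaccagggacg
Cdk1, chr20:19265143-19265292, plus strand: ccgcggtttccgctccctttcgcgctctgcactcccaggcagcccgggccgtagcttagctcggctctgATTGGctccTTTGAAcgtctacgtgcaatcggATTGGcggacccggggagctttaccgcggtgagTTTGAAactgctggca
Ccnb2, chr8:79981659-79981808, minus strand: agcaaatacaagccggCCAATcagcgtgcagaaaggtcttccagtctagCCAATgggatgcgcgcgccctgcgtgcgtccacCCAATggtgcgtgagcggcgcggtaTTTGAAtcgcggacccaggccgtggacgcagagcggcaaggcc
Cdc20, chr5:137255800-137255949, minus strand: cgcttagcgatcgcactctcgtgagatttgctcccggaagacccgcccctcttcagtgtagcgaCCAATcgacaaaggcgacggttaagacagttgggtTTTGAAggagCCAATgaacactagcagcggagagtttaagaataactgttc
Cdca8, chr5:142483200-142483349, minus strand: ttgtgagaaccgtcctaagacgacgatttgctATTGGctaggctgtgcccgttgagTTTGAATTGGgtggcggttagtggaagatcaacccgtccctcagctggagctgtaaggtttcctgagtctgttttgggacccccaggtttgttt
Hmmr, chr10:25665216-25665365, minus strand: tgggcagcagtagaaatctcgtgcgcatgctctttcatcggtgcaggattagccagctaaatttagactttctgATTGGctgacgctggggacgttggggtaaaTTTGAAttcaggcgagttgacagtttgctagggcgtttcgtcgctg
Prc1, chr1:143659331-143659480, plus strand: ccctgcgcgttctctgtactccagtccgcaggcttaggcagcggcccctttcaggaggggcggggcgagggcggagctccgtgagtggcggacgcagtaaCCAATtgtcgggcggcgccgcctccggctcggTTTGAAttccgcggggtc
Nek2, chr13:105936659-105936808, plus strand: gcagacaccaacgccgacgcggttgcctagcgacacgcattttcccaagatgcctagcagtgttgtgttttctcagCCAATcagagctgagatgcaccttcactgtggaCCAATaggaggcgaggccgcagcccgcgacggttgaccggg
The reverse complements are TTCAAA and ATTGG. In Mki67 and Cdca8 TTTGAA runs straight into ATTGG and shares its last letter with it. In Cdk1 there are 2 TTTGAA matches, and the one nearer the start lies downstream of both CCAAT matches printed. Over the 19 genes with both motifs, the nearest pair of first letters was 30 bases apart at the median, with a range of 5 to 205.

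**Figure D2:**
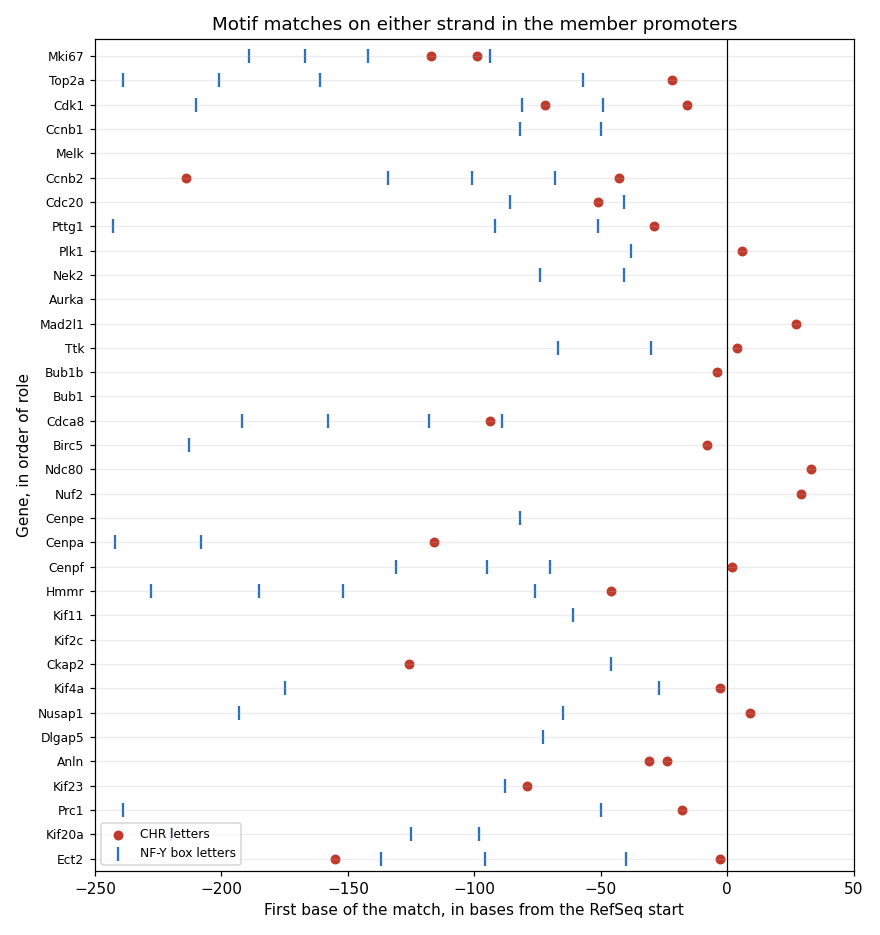
Position of each match on either strand in the windows of 34 genes, in bases from the RefSeq start at 0 (red circles, CHR as TTTGAA; blue bars, NF-Y box as CCAAT). Of 29 CHR matches 27 lie between 150 bases before and 50 bases after the start.

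Of the general markers of dividing cells, Mki67 (gene ID 291234), which encodes the Ki-67 antigen that coats mitotic chromosomes, stood at 41.5 TPM in AdMSC 1 and 33.4 TPM in SyMSC 1, against 13.8 and 8.12 TPM in PBS 1 and PBS 2. Its mean was 37.5 ± 5.70 TPM after injection and 10.98 ± 4.04 TPM with PBS (SD, n = 2 each; log2 change 1.72, SE 0.26, limma adjusted p = 0.00349). Top2a (360243), the topoisomerase that untangles replicated DNA, had 25.8 and 22.4 TPM in AdMSC 1 and SyMSC 1, against 8.96 and 5.40 TPM in the PBS libraries (log2 change 1.65, SE 0.23, limma adjusted p = 0.00251). For both genes the groups did not overlap, and within each group the Ad-titled library was the higher.

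In the CDK1 group all 6 genes rose. Cdk1 (54237), the kinase that drives entry into mitosis, had 80.2 TPM in AdMSC 1 and 72.2 TPM in SyMSC 1, against 23.9 TPM in PBS 1 and 17.4 TPM in PBS 2 (log2 change 1.85, SE 0.18, limma adjusted p = 0.000766). That was the smallest adjusted p among the 40 genes. Ccna2 (114494), cyclin A2, which partners CDK1 and CDK2 from S phase into early mitosis, had 65.9 and 48.5 TPM after injection, against 20.8 and 10.9 TPM with PBS (limma log2 change 1.84 with SE 0.33, adjusted p = 0.0103). Its libraries were more spread than those of Cdk1, and the call was lost without AdMSC 1 (limma adjusted p = 0.0668). The B cyclins, the main partners of CDK1 in mitosis, were lower in TPM than Cdk1 in every library. Ccnb1 (25203) stood at 14.5 and 12.4 TPM after injection, against 4.69 and 3.60 TPM with PBS (limma log2 change 1.49 with SE 0.18, adjusted p = 0.00164). Ccnb2 (363088) stood at 15.6 and 12.7 TPM, against 7.38 and 5.45 TPM with PBS, the smallest change of the group (1.03, SE 0.20, limma adjusted p = 0.00692). The TPM of Ccnb2 was thus above that of Ccnb1 in each library, by little after injection. Foxm1 (58921), the transcription factor of late cell cycle genes, had 15.3 and 13.3 TPM after injection, against 6.37 and 4.94 TPM with PBS (log2 change 1.21, limma adjusted p = 0.00285). Melk, a kinase of dividing cells, rose by 1.36.

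Genes that act with the anaphase-promoting complex included the most abundant of the list. Ube2c (296368), the ubiquitin-conjugating enzyme that starts chains on the complex's substrates, had 161 TPM in AdMSC 1 and 128 TPM in SyMSC 1, against 49.1 and 38.9 TPM in PBS 1 and PBS 2. It ranked first of the 40 in each library (log2 change 1.69, SE 0.18, limma adjusted p = 0.000968). Cdc20 (64515), the complex's mitotic activator, stood at 37.1 and 32.5 TPM after injection, against 13.2 and 7.83 TPM with PBS (limma log2 change 1.67 with SE 0.24, adjusted p = 0.0029). Pttg1 (64193), securin, which restrains the protease that cuts cohesin, had 61.9 TPM in AdMSC 1 and 44.5 TPM in SyMSC 1, against 27.1 and 20.2 TPM in PBS 1 and PBS 2, where it ranked second (log2 change 1.13, SE 0.21, limma adjusted p = 0.00714). Its share of the summed level of the list was 5.61% and 4.81% in the injected libraries, against 6.92% and 7.48% in the PBS libraries.

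Among the entry kinases, Plk1 (25515), the polo-like kinase of centrosome maturation and mitotic entry, showed the largest change of all 40 genes. It had 30.03 TPM in AdMSC 1 and 24.2 TPM in SyMSC 1, against 8.02 and 3.84 TPM in PBS 1 and PBS 2 (log2 change 2.08, SE 0.32, limma adjusted p = 0.00497). Aurka (261730), Aurora A of the spindle poles, stood at 14.2 and 14.8 TPM after injection, against 3.76 and 4.35 TPM with PBS (limma log2 change 1.62 with SE 0.16, adjusted p = 0.000801). It was the 1 gene of the list that was higher in the Sy-titled library of both the injected and the PBS libraries. Nek2 (114482), a kinase that separates centrosomes, had 5.99 and 5.25 TPM after injection, against 1.60 and 0.72 TPM with PBS, the lowest level of the list in both PBS libraries (log2 change 1.64, SE 0.25, limma adjusted p = 0.0031). The 0.72 TPM of PBS 2 was the 1 value under 1 TPM in the list, and the precision of so low a value is unknown.

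All 4 spindle checkpoint genes rose. Mad2l1 (297176), the MAD2 protein that blocks CDC20 at unattached kinetochores, had 16.1 TPM in AdMSC 1 and 11.6 TPM in SyMSC 1, against 3.40 and 2.36 TPM in PBS 1 and PBS 2 (log2 change 1.93, SE 0.23, limma adjusted p = 0.00143). Bub1b (171576), which encodes the checkpoint protein BUBR1, had 10.01 and 8.36 TPM after injection, against 3.51 and 1.79 TPM with PBS (log2 change 1.52, limma adjusted p = 0.00517). Bub1 (296137), the kinase that recruits checkpoint proteins, moved least of this group. Its values were 14.1 and 11.97 TPM after injection, against 7.25 and 4.61 TPM with PBS (limma log2 change 1.04 with SE 0.22, adjusted p = 0.0108), and the call was lost without AdMSC 1 (limma adjusted p = 0.0537). Ttk, the MPS1 kinase at the top of the checkpoint, rose by 1.74.

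The 4 subunits of the chromosomal passenger complex, which corrects wrong attachments, all rose, with log2 changes between 1.54 and 1.84. Incenp (293733), its scaffold, was nearly equal in both injected libraries, at 25.8 TPM in AdMSC 1 and 25.5 TPM in SyMSC 1, against 8.03 and 5.17 TPM in PBS 1 and PBS 2 (log2 change 1.84, SE 0.20, limma adjusted p = 0.0012). Birc5 (64041), survivin, had 28.01 TPM in AdMSC 1 and 30.6 TPM in SyMSC 1, against 10.6 and 7.60 TPM in PBS 1 and PBS 2 (log2 change 1.60, limma adjusted p = 0.00124). Aurkb (114592), the kinase of the complex, had 38.4 and 30.7 TPM after injection, against 13.4 and 9.22 TPM with PBS (log2 change 1.54, limma adjusted p = 0.00216). Cdca8, borealin, rose by 1.67.

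Centromere and kinetochore genes rose in 5 of 5 cases with a median log2 change of 1.26, the lowest such median of the 9 role groups. Cenpf (257649), a large kinetochore protein that accumulates in G2, had 5.46 TPM in AdMSC 1 and 4.61 TPM in SyMSC 1, against 2.64 and 1.89 TPM in PBS 1 and PBS 2. Its log2 change was the smallest of all 40 genes (0.89, SE 0.21, limma adjusted p = 0.014). Its call was lost without AdMSC 1 (limma adjusted p = 0.0709) or PBS 2 (0.0618). Cenpa (298850), the histone H3 variant that marks centromeres, had 6.57 and 5.51 TPM after injection, against 3.07 and 2.46 TPM with PBS (log2 change 0.90, limma adjusted p = 0.0104), and was lost without AdMSC 1 (limma adjusted p = 0.0573). These genes lie at a few TPM, where the added 1 shrinks log2 changes. By mean TPM, Cenpf was 2.22-fold and Cenpa 2.18-fold higher after injection, and Dlgap5 (2.10-fold) was lowest of the 40. By that measure the middle gene of the 5 was Nuf2 (2.95-fold), above Ect2 (2.72-fold), the middle of the 5 central spindle and cytokinesis genes. Both ranks thus hold only on the log2(TPM + 1) scale. Cenpe (362044), a kinesin that pulls chromosomes to the spindle equator, had 7.56 and 6.63 TPM after injection, against 2.7 and 2.07 TPM with PBS (log2 change 1.26, limma adjusted p = 0.00315). Ndc80 (301701) and Nuf2, which together grip microtubules, changed alike, by 1.43 and 1.42. For Ndc80 the values were 14.0 TPM in AdMSC 1 and 10.4 TPM in SyMSC 1, against 3.85 and 3.86 TPM in the PBS libraries, which were nearly equal.

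Of 8 spindle motor and microtubule-binding genes, 7 rose. Tpx2 (311546), which activates Aurora A on the spindle, was the highest of them, with 54.9 TPM in AdMSC 1 and 44.7 TPM in SyMSC 1, against 22.8 and 16.4 TPM in PBS 1 and PBS 2 (log2 change 1.31, limma adjusted p = 0.00296). Kif11 (171304), the kinesin that pushes spindle poles apart, had 12.03 and 9.04 TPM after injection, against 3.58 and 2.82 TPM with PBS (log2 change 1.45, limma adjusted p = 0.00254). Hmmr (25460), a spindle protein also known as a hyaluronan receptor, showed the largest change here, with 10.2 and 9 TPM after injection, against 2.97 and 1.96 TPM with PBS (limma log2 change 1.63 with SE 0.21, adjusted p = 0.00186). Dlgap5 (289997), which stabilises spindle microtubules, was close between libraries of each group, at 18.9 and 19.3 TPM after injection, against 9.67 and 8.52 TPM with PBS (limma log2 change 0.996 with SE 0.14, adjusted p = 0.00254). Nusap1 (311336), which bundles microtubules around chromosomes, had 28.2 TPM in AdMSC 1 and 23.6 TPM in SyMSC 1, against 15.6 TPM in PBS 1 and 6.91 TPM in PBS 2. Its groups did not overlap, but with PBS libraries 2.26-fold apart it did not pass (log2 change 1.23, SE 0.38, limma adjusted p = 0.0532). It passed under median-ratio scaling (limma adjusted p = 0.047). Its log2 change was 1.76 without PBS 1 and 0.69 without PBS 2. Leaving out a PBS library removes the spread between the PBS libraries, so those fits cannot decide whether Nusap1 passes. Kif2c, Kif4a and Ckap2 rose by 1.43, 1.32 and 1.42, and Kif4a was lost without AdMSC 1 (limma adjusted p = 0.0556).

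The 5 genes of the central spindle and of cytokinesis rose. Anln (363031), anillin, which links actin and myosin in the contractile ring, had 28.1 TPM in AdMSC 1 and 22.1 TPM in SyMSC 1, against 6.39 and 4.33 TPM in PBS 1 and PBS 2. Its log2 change was the second largest of the 40 (2.05, SE 0.21, limma adjusted p = 0.000983). Prc1 (308761), which bundles the microtubules of the central spindle, had 54.1 and 44.2 TPM after injection, against 22.1 and 14.9 TPM with PBS (log2 change 1.38, limma adjusted p = 0.00326). Kif20a (361308), a kinesin of the central spindle, had 34.5 and 30.7 TPM, against 15.7 and 10.4 TPM with PBS (log2 change 1.29, limma adjusted p = 0.00385). Ect2 (361921), the exchange factor that switches on RhoA for the ring, stood at 6.59 and 4.95 TPM, against 2.64 and 1.60 TPM with PBS (limma log2 change 1.13 with SE 0.24, adjusted p = 0.0109), and was lost without AdMSC 1 (limma adjusted p = 0.0583). Kif23, the motor of centralspindlin, rose by 1.38.

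**Figure D3:**
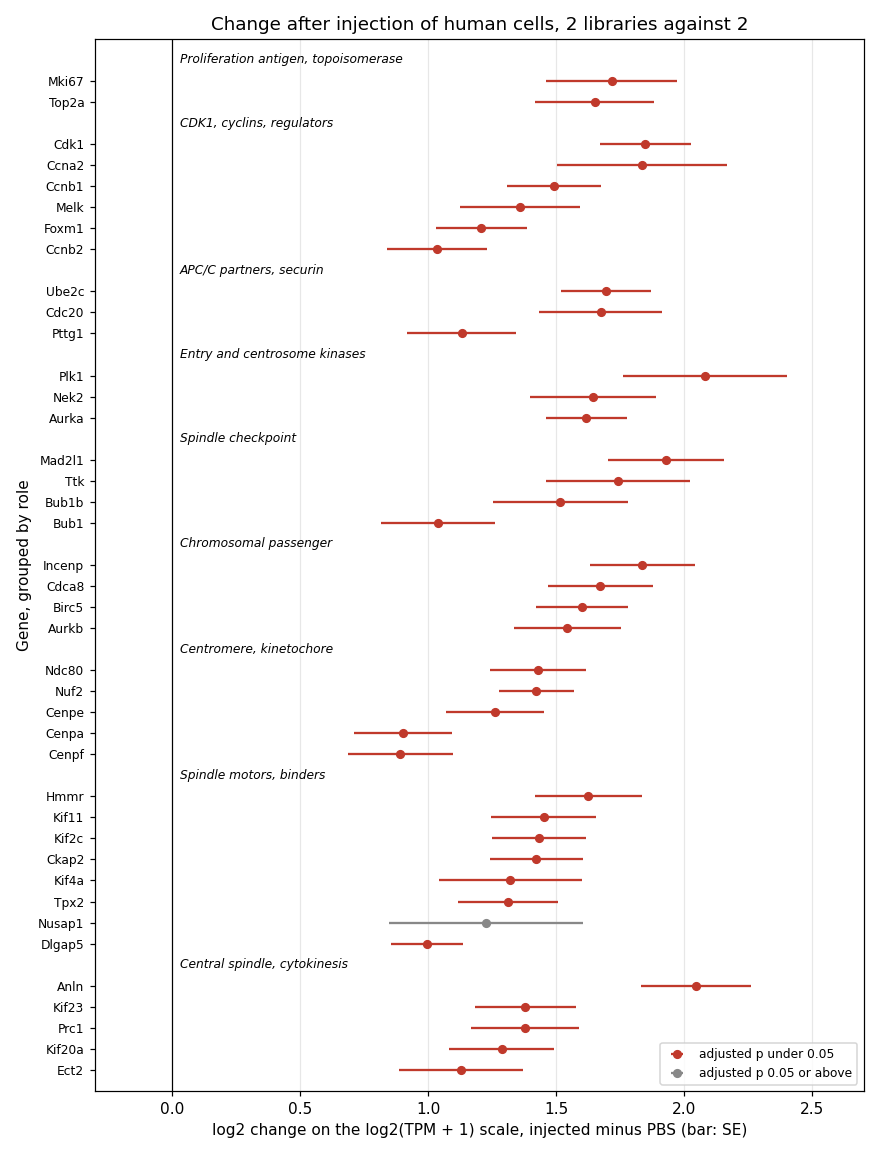
log2 change of each gene (injected minus PBS, 2 libraries against 2) with its SE, grouped by role and ordered by change within a role. 39 genes are red (limma adjusted p under 0.05); Nusap1, grey, has the widest bar, and the changes run from 0.89 (Cenpf) to 2.08 (Plk1).

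The order of levels within the list was much the same in every library. Across the 40 genes the rank correlation (Spearman) was 0.986 between SyMSC 1 and AdMSC 1 and 0.959 between PBS 1 and PBS 2, and it lay between 0.916 and 0.956 between an injected and a PBS library. These are correlations across genes, which are not independent replicates, and they describe the profile. Cdk1, Tpx2 and Prc1 stayed within the 6 highest genes of each library, beside Ube2c, Pttg1 and Ccna2. Dlgap5 made up 1.72% and 2.08% of the summed level in AdMSC 1 and SyMSC 1, against 2.47% and 3.15% in PBS 1 and PBS 2. Anln went the other way, with 2.54% and 2.39% in AdMSC 1 and SyMSC 1, against 1.63% and 1.60% in the PBS libraries.

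Set against PBS on its own, each injected library was higher for most genes. AdMSC 1 lay above PBS 1 for 40 of 40 genes (51.1% of all tested genes) and SyMSC 1 above PBS 2 for 40 of 40 (48.8%). In a fit of 3 groups, in which the lone injected library is assumed to vary like the PBS libraries, 38 of 40 genes passed as higher in AdMSC 1 (17.9% of all tested genes did, and 34.4% passed in either direction) and 33 of 40 in SyMSC 1 (18.2% of all tested genes, and 40.2% in either direction). Both contrasts share the PBS libraries. Ccna2 (limma adjusted p = 0.0516) and Nusap1 (0.19) did not pass for AdMSC. For SyMSC the 7 that did not pass were Nusap1 (0.246), Ccna2 (0.0748), Cenpf (0.068), Ect2 (0.0553), Kif4a (0.0536), Cenpa (0.0525) and Bub1 (0.052), given as limma adjusted p. Without the filter on low values this fit made no call in either contrast, for the 40 genes or for any other gene. Between titled pairs that share no library, the median ratio of TPM + 1 over the 40 genes was 2.59 for AdMSC 1 over PBS 1 and 2.95 for SyMSC 1 over PBS 2, beside 1.01 and 0.984 over all tested genes. A ratio of at least 2 with at least 5 TPM in the injected library was reached by 34 of 40 genes in the Ad pair (9% of all tested genes) and by 37 of 40 in the Sy pair (10.4%). With 1 library a side there is no test of these ratios.

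Between the cell sources the difference was small. No gene of the list reached a ratio of TPM + 1 of 1.5 between SyMSC 1 and AdMSC 1 in either direction, which 7.91% of all tested genes did. The ratio of SyMSC 1 over AdMSC 1 ran from 0.722 (Pttg1) to 1.09 (Birc5), with a median of 0.856 beside 0.938 over all tested genes. SyMSC 1 was the lower library for 37 of 40 genes, and AdMSC 1 was above SyMSC 1 in 65.4% of all tested genes. The exceptions were Aurka, Birc5 and Dlgap5. In the fit of 3 groups the log2 differences, SyMSC minus AdMSC, ran from -0.47 to 0.12. With 1 library a side, small differences do not show that the sources act alike.

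The PBS libraries differed in the same direction as the injected ones. PBS 1 was above PBS 2 for 38 of 40 genes, against 54.3% of all tested genes, with Aurka and Ndc80 as the exceptions. The median ratio of TPM + 1 for PBS 1 over PBS 2 was 1.36 over the list and 1.02 over all tested genes, and 10 of 40 genes reached 1.5 (3.85% of all tested genes). For 36 of 40 genes the Ad-titled library was the higher one of the injected and of the PBS libraries alike, against 38.5% of all tested genes. This overlap is largely fixed by the counts for each group (37 of 40 injected, 38 of 40 PBS) and is no further result. No PBS library reached an injected one for any gene of the list.

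**Figure D4:**
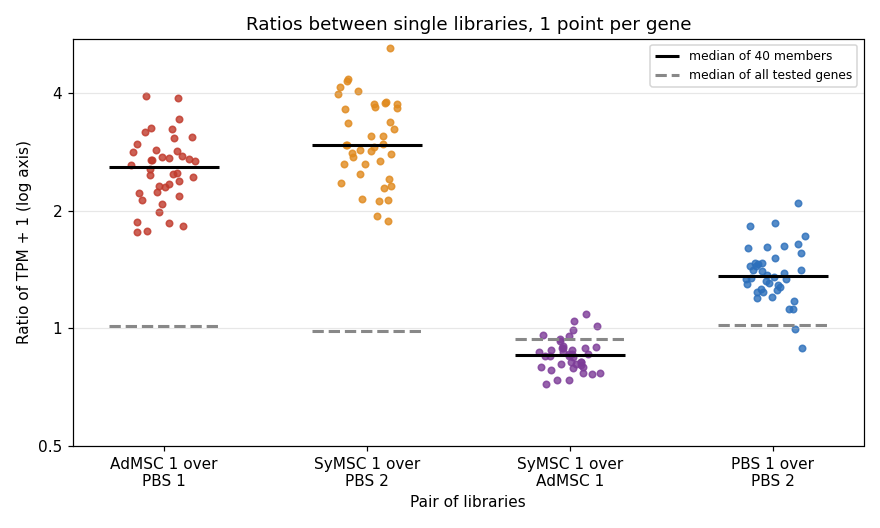
Ratio of TPM + 1 between single libraries on a log axis, 1 point per gene, with the median of the 40 genes (black line) and of all tested genes (grey dashes). Both injected-over-PBS pairs lie above 1.7 for each gene, SyMSC 1 over AdMSC 1 has a median of 0.856 and PBS 1 over PBS 2 a median of 1.36.

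Further cell cycle genes outside the list were set beside it by function. Spindle and cytokinesis genes rose in 21 of 26 cases with 0 lower, led by the centrosomal adaptor gene Tacc3 (1.95) and Racgap1 (1.76), the partner of KIF23 in centralspindlin; the call of Racgap1 was lost without AdMSC 1 (limma adjusted p = 0.0692) or SyMSC 1 (0.0574). Of 30 kinetochore and checkpoint genes 22 rose and 1 fell. Cenpu (1.71) and Spc25 (1.71) rose most, and Zwint, which docks the checkpoint complex, fell by 0.61 on the log2 scale, a call lost without any of SyMSC 1, PBS 1 or PBS 2 (limma adjusted p = 0.0799, 0.0851 and 0.0915) and without the filter (0.0617). Cohesin and condensin genes rose in 10 of 16 cases with 0 lower, among them Cdca5 (1.73), which holds cohesin on DNA, and the condensin gene Ncapg (1.30). Of 11 genes that switch G2 to mitosis, 8 rose and 1 fell. Mastl (1.67), which shields CDK1 substrates from a phosphatase, and the CDK subunit gene Cks2 (1.49) rose, while Wee1, the kinase that holds CDK1 off, fell by 0.65 on the log2 scale. Cks2 was lost without AdMSC 1 (limma adjusted p = 0.0681) or SyMSC 1 (0.0602), and Wee1 without SyMSC 1 (0.0828) or PBS 1 (0.0852). The replication and S phase list rose in 29 of 30 cases with 0 lower and a median of 1.25, led by Rrm2 (2.34) and the licensing factor gene Cdt1 (2.05).

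Other cell cycle lists had fewer calls, to be read against the 23.7% of all tested genes that rose and the 24.7% that fell. For the anaphase-promoting complex, G1 and inhibitor lists and for MuvB, the counts of rises were nearer to that share than those of the lists above. The core of the anaphase-promoting complex and its inhibitors, unlike Cdc20 and Ube2c of the list, showed 5 rises and 1 fall among 17 genes, with a median of -0.09. Fzr1 (0.79), the activator used after mitosis, and Fbxo5 (1.04), the EMI1 inhibitor, rose and the small subunit gene Cdc26 fell by 0.51 on the log2 scale. The call of Fbxo5 was lost without AdMSC 1 (limma adjusted p = 0.103), SyMSC 1 (0.172) or PBS 2 (0.105), with a pseudocount of 0.1 (0.0535), with upper-quartile scaling (0.0588), with the title word as a block (0.0627) and without the filter (0.0849), and that of Cdc26 without SyMSC 1 (0.078), PBS 1 (0.119) or PBS 2 (0.0595). Of 8 MuvB and B-MYB genes 3 rose and 5 did not pass: Mybl2, which encodes B-MYB, stood at 22.9 and 15.9 TPM after injection, against 4.79 and 3.14 TPM with PBS (log2 change 2.03, limma adjusted p = 0.00153), and the DNA-binding subunit gene Lin54 rose by 1.09. Of 12 G1 cyclin, kinase and E2F genes 5 rose and 0 fell, with the E cyclin genes Ccne2 (1.76) and Ccne1 (1.59) in front. CDK inhibitors and pocket protein genes showed 2 rises and 1 fall among 12. Rbl1, the pocket protein p107, rose by 2.05, and Cdkn1c, the inhibitor p57, stood at 13.2 and 8.18 TPM after injection, against 117 and 72.6 TPM with PBS (limma log2 change -3.03 with SE 0.32, adjusted p = 0.00208). The other gene of that list that rose was Cdkn1a, the inhibitor p21, which is named after its values were seen. It had 98.9 TPM in AdMSC 1 and 143 TPM in SyMSC 1, against 35.0 and 26.7 TPM in PBS 1 and PBS 2 (log2 change 1.92, SE 0.22, limma adjusted p = 0.00144). SyMSC 1 was the higher injected library for Cdkn1a and the lower for 37 of the 40 mitosis genes. PBS 1 was the higher PBS library for Cdkn1a and also for 38 of the 40. A relation between Cdkn1a and the mitosis genes was not tested.

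**Figure D5:**
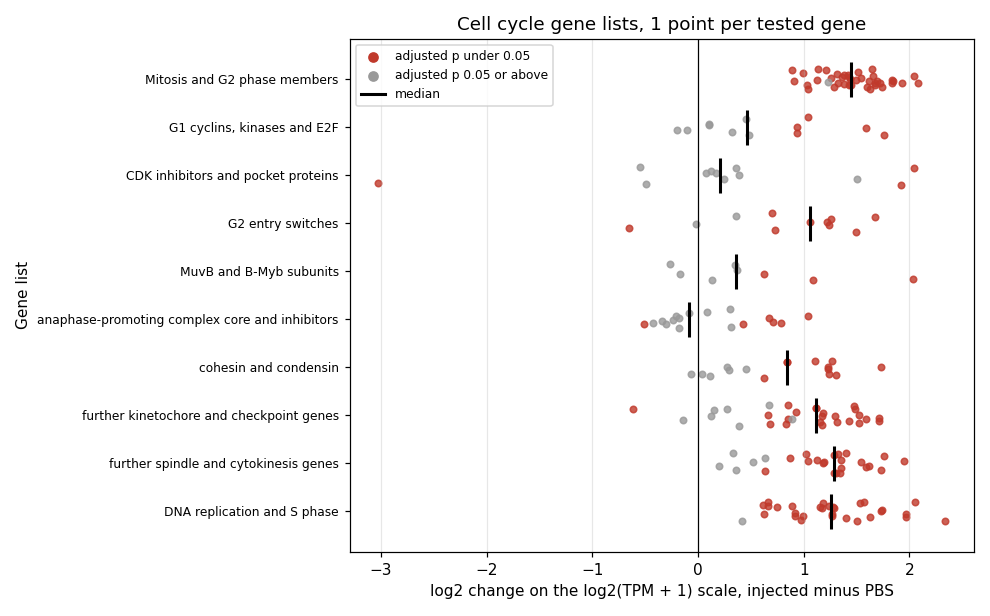
log2 change (injected minus PBS) of each tested gene in the 40-gene list and in 9 other cell cycle lists, red where limma's adjusted p was under 0.05 and grey otherwise, with the list median as a black bar. The medians of the spindle, S phase and kinetochore lists (1.28, 1.25 and 1.12) lie nearest the 1.44 of the 40 genes, and that of the anaphase-promoting complex core lies at -0.09.

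Cell type markers also differed between the injected and PBS libraries, with some lists mostly rising and others falling, and their part in the result was not tested. Monocyte and macrophage markers rose in 8 of 9 cases, and their summed level was 26014 and 35384 TPM in AdMSC 1 and SyMSC 1, against 9807 and 11105 TPM in PBS 1 and PBS 2. T and NK cell markers rose in 6 of 8 tested cases (290 and 345 TPM summed after injection, against 51.9 and 41.9 TPM with PBS) and neutrophil markers in 5 of 8 (2290 and 4027 TPM, against 237 and 92.1 TPM). The T and NK changes were uneven, and Cd8a, Cd8b and Cd2 made up most of the sums after injection. Their log2 changes were 4.44, 3.49 and 3.04, against 1.20 for Cd3g, 0.87 for Lck and 0.84 for Cd3e. Cd3d (0.78) and Nkg7 (-0.81) did not pass. Fibroblast markers fell in 7 of 10 cases (17097 and 11631 TPM, against 39182 and 31952 TPM), endothelial markers in 8 of 8 (188 and 143 TPM, against 614 and 682 TPM) and mural markers in 8 of 8 (883 and 682 TPM, against 3134 and 3997 TPM). Among the other lists, dendritic cell markers gave 3 rises and 1 fall among 7 tested. Falls, with 0 rises, numbered 4 of 6 tested for mast cells, 3 of 7 for muscle, 4 of 7 for adipocytes and 4 of 7 for Schwann cells. Of all tested genes 23.7% rose and 24.7% fell. Those of neutrophil precursors, which divide, gave 0 calls among 6 tested, with sums of 27.6 and 89.1 TPM after injection, against 153 and 19.7 TPM with PBS, and Ltf was listed at 0 in AdMSC 1, PBS 1 and PBS 2. Of 7 tested erythroid precursor markers 1 rose, Tfrc (log2 change 1.98, named after its values were seen), the transferrin receptor gene that dividing cells of many types also use, and the summed level was 41.0 and 57.1 TPM after injection, against 60.7 and 17.8 TPM with PBS. B and plasma cell markers gave 0 calls among 3 tested, with sums of 7.36 and 23.5 TPM, against 12.02 and 3.18 TPM. Between the injected libraries, fibroblast, endothelial, mural, mast cell and Schwann cell markers summed higher in AdMSC 1. The other lists summed higher in SyMSC 1. Lyz2 made up most of the macrophage sum (19301 TPM in AdMSC 1 and 27210 TPM in SyMSC 1), and Cd68 and Msr1 were higher in AdMSC 1. Between the PBS libraries, neutrophil, neutrophil precursor, erythroid precursor, T cell, B cell, dendritic cell, muscle and fibroblast markers summed higher in PBS 1. The other lists summed higher in PBS 2. With 1 library a side, none of these differences was tested.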

How the data were processed

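Bulk messenger RNA was measured in 4 libraries. The authors deposited TPM, per the file headers, over 17899 rat genes; TPM keeps no depth, so depth is unknown and no interval is printed. The submitters' processing notes name HISAT2 2.0.4 and Rnor_6.0 without a role. The counter, annotation, strand use and any separation of human from rat reads were not given in the sources used here. RefSeq names pseudogenes after Ube2c, Aurka, Ckap2, Ccnb2, Cdk1, Kif11, Mki67, Nusap1, Prc1 and Tpx2, so their reads may have been split and these 10 levels are less certain.

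The deposited TPM were put on the log2(TPM + 1) scale. limma 3.58.1 in R 4.3.3 (trend, robust) was run on 13371 genes that reached 1 TPM in 2 or more libraries, and p was adjusted over all of them by Benjamini-Hochberg, with 0.05 as the limit. Injected libraries were set against PBS libraries, and then AdMSC, SyMSC and PBS as 3 groups. The code was tested on simulated data. Alternatives were a pseudocount of 0.1, no filter, median-ratio and upper-quartile scaling, the title word as a block, and each library left out.

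Members and lists were chosen with earlier results of these data known. Levels in each library are given for a set of well-known members, for the largest and smallest change of each role and for members not called; Nek2 is given beyond this rule, after its values were seen. In other lists the 2 largest calls and the largest opposite one are named. Promoters (GRCr8) are from RefSeq, matched by gene ID.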

Additional observations from a re-analysis of the deposited data

How the results depend on the processing

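The count of mitosis genes called higher after injection was 39 with a pseudocount of 0.1, without the filter and with upper-quartile scaling. In these settings 23.4%, 16% and 21% of all tested genes were called higher, against 23.7% in the main fit. The count was 40 with median-ratio scaling (24.5% of all tested genes). The labels do not say that the title word pairs libraries. Over 13371 genes the deviations of AdMSC 1 and PBS 1 from their group means correlated at 0.117. With the title word as a replicate block the count was 40 (24.3% of all tested genes), with Nusap1 added (limma adjusted p = 0.019). The median log2 change lay between 1.31 and 1.65 with 1 library left out and between 1.37 and 1.62 under the other settings. Without the filter the fit of 3 groups called 0 mitosis genes for AdMSC against PBS and 0 for SyMSC against PBS, where 38 and 33 were called with it; the cause was not tested. Upper-quartile scaling shifted the median of all genes by -0.08, and the share of calls that were higher was then 42.3%, against 49% as deposited. No mitosis gene changed direction in any of these settings. Each fit with 1 library left out keeps 1 library in a group. The mitosis calls lost in such fits are named with each gene, and fits without a PBS library cannot decide whether Nusap1 passes. Read depth is unknown, and the size of difference between SyMSC and AdMSC that this design could detect was not measured.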

Other observations

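The balance between the mitosis genes and the replication genes differed between libraries. The summed TPM of the 40 mitosis genes over that of the 30 replication and S phase genes was 1.01 in AdMSC 1 and 1.06 in SyMSC 1, against 0.938 in PBS 1 and 0.721 in PBS 2. The injected libraries did not overlap with the PBS libraries in this ratio, and the PBS libraries were further apart than the injected ones. It was not tested.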
